A study of Mus musculus with 16 samples.

Results

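The respiratory chain and ATP synthase genes described here are 88 of the 17097 genes that had a probe set of their own on the array. They were chosen by symbol: nuclear genes of complex I (Nduf symbols, 35 genes), complex II (Sdha to Sdhd, 4 genes), complex III (Uqcr symbols and Cyc1, 8 genes), complex IV (Cox4 to Cox8 symbols, 17 genes) and complex V (Atp5 symbols, 17 genes), with 7 complex I assembly factors of the Ndufaf type. Where several probe sets named a gene, the brightest on average over the arrays was read. The symbol pattern also takes Ndufs5-ps, a pseudogene, which was kept and is counted with complex I. Ndufa4 and Ndufa4l2 are counted with complex I by symbol, although the Ndufa4 protein has since been assigned to complex IV. Ndufs5, Ndufa13, Ndufb6, Uqcrh and Cox7b fit the same pattern in RefSeq but have no probe set naming them alone, and they were not analysed here.

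The RNA came from the striatum of male mice aged 7 to 8 weeks, from the inbred strains A/J (A/JOlaHsd) and DBA/2J (DBA/2JRccHsd). Of the 4 groups, A/J control and DBA/2J control are labelled untreated, although the treatment protocol gives saline to mice without the drug; A/J risperidone and DBA/2J risperidone received risperidone, an antipsychotic that blocks dopamine and serotonin receptors, at 1 mg/kg by intraperitoneal injection once per day for 3 days. Each group held 4 mice and each mouse 1 Affymetrix array (16 arrays), so p-values measure the spread between mice. The labels give no cage, litter or array date for a mouse.

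The respiratory chain passes electrons from NADH (through complex I) and succinate (through complex II) by way of ubiquinone, complex III and cytochrome c to oxygen at complex IV. Complexes I, III and IV pump protons across the inner mitochondrial membrane, and complex V, the ATP synthase, uses their return to make ATP. Mitochondrial DNA encodes central subunits of complexes I, III, IV and V, and nuclear genes, as described here, encode the rest. Neurons depend on this pathway for most of their ATP. Nuclear respiratory factor 1 (NRF1) and the ETS-family factor GABPA are textbook regulators of many of these genes.

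Promoters were read from RefSeq (GRCm38.p6) for the 70 members that its promoter table lists, as 250 bases before to 50 bases after the gene's start. An NRF1 motif (GCGCA, any base, then GCGC, searched on either strand) was present in 17 of the 70, or 24.3%, against 4.78% of all 27025 promoters of the same length. An ETS motif (CCGGAAG on either strand) was present in 16, or 22.9%, against 9.12%. At least 1 of them was present in 29, or 41.4%, against 13% of all promoters. Among the roles, 20 of 49 promoters of subunits other than the core had a motif, 5 of 11 of the core, 4 of 6 of the assembly factors and 0 of 4 of the tissue isoforms. The 250 bases before the start of 5 members are shown because these genes include members with several matches, 1 match and none, and a muscle isoform whose array values ran opposite to the others below. All 5 are read 5′ to 3′ on the gene's own strand, the minus strand, and capitals mark NRF1 and ETS matches. Cox6a1 encodes the ubiquitous form of a complex IV subunit (chr5:115348959-115349208), Sdha the flavoprotein of complex II (chr13:74350241-74350490), Atp5k a membrane subunit of the ATP synthase (chr5:108434400-108434649), Uqcr11 a small subunit of complex III (chr10:80406822-80407071) and Cox8b the muscle form of a complex IV subunit (chr7:140900447-140900696).
Cox6a1: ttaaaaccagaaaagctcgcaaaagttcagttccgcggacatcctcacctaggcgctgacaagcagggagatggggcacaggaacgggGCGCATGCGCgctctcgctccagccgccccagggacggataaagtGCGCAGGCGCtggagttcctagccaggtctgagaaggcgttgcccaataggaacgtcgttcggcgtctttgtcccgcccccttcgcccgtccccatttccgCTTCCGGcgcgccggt
Sdha: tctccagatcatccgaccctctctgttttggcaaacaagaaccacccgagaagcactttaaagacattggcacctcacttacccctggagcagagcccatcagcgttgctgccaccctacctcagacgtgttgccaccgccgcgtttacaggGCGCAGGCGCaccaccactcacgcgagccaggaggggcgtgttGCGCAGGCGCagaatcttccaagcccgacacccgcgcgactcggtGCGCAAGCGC
Atp5k: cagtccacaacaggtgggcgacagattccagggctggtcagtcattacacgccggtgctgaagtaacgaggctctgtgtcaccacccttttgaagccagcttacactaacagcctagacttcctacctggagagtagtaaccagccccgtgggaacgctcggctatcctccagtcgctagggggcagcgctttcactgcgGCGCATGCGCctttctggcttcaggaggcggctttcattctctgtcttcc
Uqcr11: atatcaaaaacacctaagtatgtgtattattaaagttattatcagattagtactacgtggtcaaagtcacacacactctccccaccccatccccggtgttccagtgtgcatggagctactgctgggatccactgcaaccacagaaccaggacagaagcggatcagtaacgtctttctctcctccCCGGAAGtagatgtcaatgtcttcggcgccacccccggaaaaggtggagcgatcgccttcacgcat
Cox8b: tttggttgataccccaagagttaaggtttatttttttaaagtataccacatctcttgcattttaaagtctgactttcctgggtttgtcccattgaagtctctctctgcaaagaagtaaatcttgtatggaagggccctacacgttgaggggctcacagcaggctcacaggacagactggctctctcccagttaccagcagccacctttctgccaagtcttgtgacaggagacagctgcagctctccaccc

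In the stretches shown, Cox6a1 has 2 NRF1 matches and 1 ETS match, Sdha has 3 NRF1 matches, Atp5k has 1 NRF1 match and Uqcr11 has 1 ETS match. Cox8b has neither set of letters in its stretch. A match is a run of letters and not a measured binding site.

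The values are log2 levels per probe set, so a difference of 1 is a doubling. These genes were read well above the middle of the arrays: 81 of 88 had a mean level at or above 5.67, the median of all probe sets, and the median member lay at percentile 97.0 of all genes. The median of single arrays ran from 5.66 to 5.71. Striatal projection neuron markers were found for 8 of 10 listed genes, with mean levels of 7.77 for Pde10a, 7.00 for Penk, 6.98 for Tac1, 6.85 for Ppp1r1b, 6.19 for Pdyn, 6.12 for Drd1 and 5.95 for Rgs9; Drd2, at 4.05, was below the median of all probe sets. Cortical markers were also above it for 3 of the 4 found, Slc17a7 at 9.78, Tbr1 at 8.41 and Neurod6 at 8.01. In bulk tissue, fewer cells of a type and less RNA per cell cannot be told apart.

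Several arrays stand apart and bear on what follows. DBA/2J control replicate 4 correlated with the other 15 arrays at 0.970 to 0.979 and had the narrowest spread of levels, with an interquartile range of 2.35 against 2.49 to 2.59. Its 3′ minus 5′ difference was 1.80 for the Gapdh control probes, inside the 1.24 to 1.93 of the others, and -0.02 for the actin control probes, above their -0.33 to -0.04. On 47 probe sets that separate the strains in control mice, A/J risperidone replicates 1, 2 and 4 lay 27.9%, 36.2% and 39.0% of the way from A/J to DBA/2J, whereas replicate 3 lay at 0.665%. DBA/2J risperidone replicates lay at 86.8%, 97.4%, 101.26% and 94.2%. These positions were taken on unlogged levels, not on the log2 scale used elsewhere. The comparisons that use DBA/2J control mice are therefore given with and without replicate 4, and the medians that use A/J risperidone mice are also given without replicates 1, 2 and 4 of that group, which leaves 1 array.

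The most marked feature of these genes was a joint low level in DBA/2J control replicate 4, in complexes I, III, IV and V. Complex II was less clear, with 1 of its 4 genes (25%) at its lowest value there. In DBA/2J control replicate 4, 79 of 88 members were below the mean of the other 3 DBA/2J control arrays, and 70 of 88 (79.5%) had their lowest value of all 16 arrays there. The background for the latter is 23.3% of all genes. No other array held the lowest value of more than 5 members. The median member was 0.43 lower on the log2 scale than in the other 3 arrays, or 1.34-fold lower, against a median difference of 0.01 over all genes. The 4 groups were otherwise close: the mean level of all members was 9.40 ± 0.05 (SD, n = 4) in A/J control, 9.36 ± 0.03 in A/J risperidone, 9.29 ± 0.21 in DBA/2J control and 9.42 ± 0.03 in DBA/2J risperidone. Without replicate 4 the DBA/2J control mean was 9.39 ± 0.01 (SD, n = 3), between the others.

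**Figure D1:**
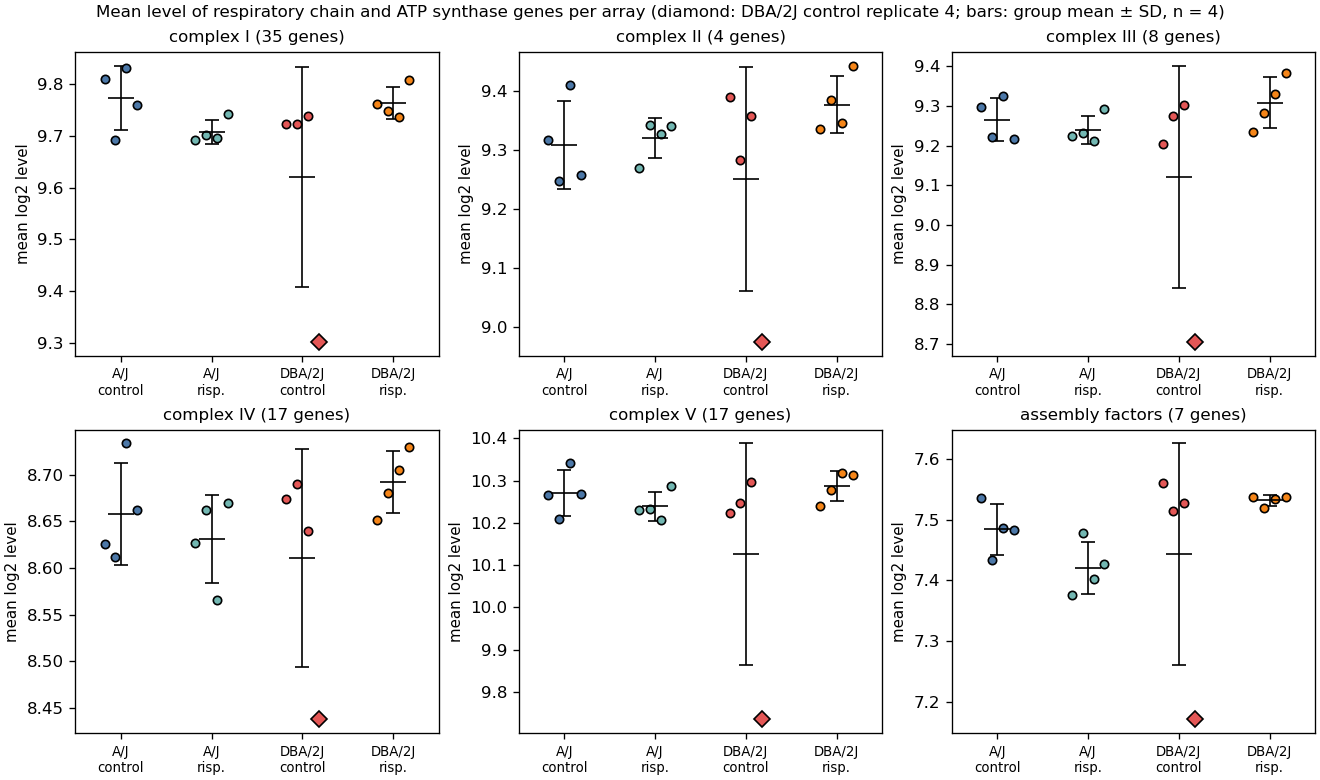
Mean log2 level of the member genes of each complex in each of the 16 arrays; points are arrays, bars are the group mean ± SD (n = 4), the diamond is DBA/2J control replicate 4, and each panel has its own scale. The diamond is the lowest point in all 6 panels, for example 9.30 for complex I, where the other 15 arrays lie between 9.69 and 9.83.

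The size of this drop differed by complex and by the role of the gene. Complex III, with a median of -0.50 and 7 of 8 genes at their lowest, and complex V, with a median of -0.50 and 16 of 17 at their lowest, were the furthest down. Complex I followed with a median of -0.46 and 31 of 35 genes at their lowest, then the assembly factors with -0.44 and 5 of 7. Complex IV had a median of -0.24 with 10 of 17 at their lowest. Of its 17 genes 7 are tissue isoforms, and the 10 others were all at their lowest, with a median of -0.47, near that of complex I. Complex II had a median of -0.21 with 1 of 4 at their lowest. By role, all 57 subunits outside the core and the tissue isoforms were below the mean of the other 3 arrays. Their median was -0.50. The 15 core subunits (the conserved nuclear core of complex I, all of complex II, cytochrome c1 and the Rieske protein of complex III, and the alpha, beta and gamma subunits of the ATP synthase) had a median of -0.18, with 14 below. The 8 tissue isoforms, which replace the common form of a subunit in muscle, testis or lung or under low oxygen, had a median of 0.23, with 6 above. These differences between roles were not tested, since the values come from 1 array.

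Uqcrq, a small subunit of complex III that binds beside cytochrome b, fell furthest in that array. Its levels were 9.33, 9.55, 9.53 and 8.38 in DBA/2J control replicates 1 to 4, and 9.28, 9.40, 9.68 and 9.69 in DBA/2J risperidone. The A/J control arrays read 9.51, 9.50, 9.56 and 9.56, and the A/J risperidone arrays 9.55, 9.50, 9.43 and 9.56. Replicate 4 was thus 1.09 below its group, or 2.13-fold, while the other 15 arrays overlapped across the groups. Uqcr11, whose promoter is shown above, was 0.97 lower there in log2 level and read 9.11, 9.21, 9.22 and 8.21 in the DBA/2J control arrays. Atp5e, the epsilon subunit of the ATP synthase, fell by 0.94 and Atp5pb, the b subunit of its stator stalk, by 0.92. Atp5mpl, a small membrane subunit of the same complex, fell by 0.89 and Ndufb3, of the membrane arm of complex I, by 0.86. Ndufs5-ps, the pseudogene counted with complex I, fell by 0.96 at a mean level of 10.17. Whether its probe set also reads RNA of Ndufs5 was not tested.

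Core subunits of the same complex differed among themselves in that array. Sdhc, a membrane anchor of complex II, read 8.12, 8.08, 8.47 and 7.26 in the DBA/2J control arrays, and its value in replicate 4 was 0.96 below the others. The other 3 subunits of the same complex were 0.23 (Sdha), 0.18 (Sdhd, the other anchor) and 0.10 (Sdhb, the iron-sulphur subunit) lower on the log2 scale. Atp5b, the catalytic beta subunit of the ATP synthase, read 10.66, 10.72, 10.94 and 10.10, a drop of 0.67 in replicate 4. Ndufs1, the largest iron-sulphur subunit of complex I, went the other way: it read 8.33, 8.51, 8.52 and 8.62, and replicate 4 was the highest of its group.

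The tissue isoforms that stood higher in replicate 4 all had mean levels under 7. Ndufa4l2, a hypoxia-induced relative of Ndufa4, read 5.43, 5.52, 5.56 and 6.07 in the DBA/2J control arrays, 0.57 higher in replicate 4. Cox8b read 5.48, 5.48, 5.37 and 5.99, or 0.55 higher. Cox6b2, the testis form of its subunit, was 0.33 higher and Cox6a2, the muscle form, 0.32 higher. Cox7b2 ran the other way and read 4.83, 4.98, 4.66 and 4.22, or 0.60 lower.

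**Figure D2:**
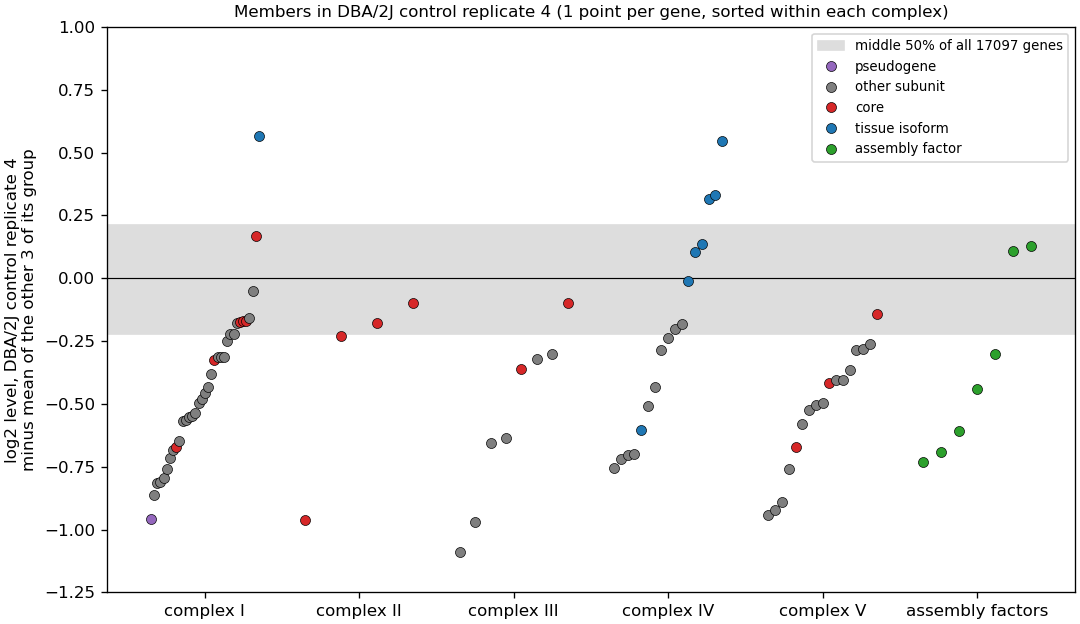
Each point is 1 gene, sorted within its complex, and the vertical axis is its log2 level in DBA/2J control replicate 4 minus the mean of the other 3 arrays of the group; the grey band holds the middle 50% of all 17097 genes. Members reach from -1.09 (Uqcrq) to 0.57 (Ndufa4l2), with the tissue isoforms in blue mostly above 0.

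The level of a gene moved with the direction of its difference in replicate 4, so members were set beside genes of like mean level. Under a level of 6, the median difference was 0.12 for the 8 members and 0.12 for 8142 genes. Between 6 and 8 it was -0.10 for 4 members, of which 2 were lower, and -0.09 for 6055 genes. Between 8 and 9 it was -0.55 for 12 members and -0.16 for 1723 genes. Between 9 and 10, all 26 members were lower, with a median of -0.45 against -0.14 for 761 genes. Between 10 and 11, all 28 members were lower, with a median of -0.49 against -0.15 for 305 genes. From 11 up, all 10 members were lower, with a median of -0.29 against -0.12 for 111 genes. From a level of 8 up the median member was further down than genes of like level in general, and below 8 it was not. The 15 core subunits, all at levels of 8 or more, had a median of -0.18, near the -0.12 to -0.16 of all genes there. They ranged from -0.96 (Sdhc) to 0.17 (Ndufs1).

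Probe sets that the rule did not use gave similar values. The 41 members with several probe sets had 61 others, of which 48 had a mean at or above the median of all probe sets. Of these 48, 45 were lower in replicate 4 than the mean of the other 3 arrays of the group. The median difference was -0.44. Of the 13 dimmer probe sets, 5 were lower, with a median of 0.14.

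Other genes tied to mitochondria or to translation were also low in that array. Of 34 further assembly factors and inhibitors of the complexes, 27 were lower, with a median of -0.15. Among 7 carriers, 6 were lower, with a median of -0.38; Cycs, which encodes cytochrome c, fell by 0.72, while Vdac1, an outer membrane channel, was 0.12 higher. The tricarboxylic acid cycle and pyruvate dehydrogenase list had 12 of 13 genes lower and a median of -0.25. Mitochondrial ribosomal proteins had 60 of 73 lower and a median of -0.35, and cytosolic ribosomal proteins had 68 of 70 lower and a median of -0.50, the latter being no part of mitochondria. The regulators split evenly, with 4 of 8 lower and a median of 0.02, but Tfam, which packages and transcribes mitochondrial DNA, was 2.30-fold lower. A low level of these lists thus accompanied that of the respiratory genes.

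Cell type markers were set beside the low array in the same way, as the mean level of a list. Parvalbumin interneuron markers (2 of 3 found) read 8.45 in replicate 4 and 9.01 to 9.17 in the 3 remaining DBA/2J control arrays. Striatal projection neuron markers read 6.0 against 6.20 to 6.30, oligodendrocyte markers (6 of 7) 8.13 against 8.43 to 8.54 and microglia markers (6) 6.08 against 6.28 to 6.33. Cortex markers (4 of 5) read 7.79 against 7.92 to 8.03, and blood markers (4 of 5) 9.095 against 9.103 to 9.75. Astrocyte markers (8) read 8.41 and skeletal muscle markers (6) 5.38, both inside the range of the other arrays of the group. Choroid plexus markers (7) read 5.05 against 4.65 to 4.95 and thalamus markers (5) 6.12 against 5.84 to 6.08. The part of cell makeup, and of the narrower spread and actin ratio of that array, in the low respiratory gene levels was not tested.

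The first comparison asked what risperidone did in A/J striatum, and no member passed the test. The limma fit over all 45037 probe sets called 0 of 88 members at an adjusted p under 0.05, as it called 0% of all genes. At an unadjusted p under 0.05 it held 2 members, against 4.87% of all genes. DBA/2J control replicate 4 enters this comparison through the shared spread: without it limma again called 0 members (0% of all genes), and 8 members had an unadjusted p under 0.05 (7.13% of all genes). Members lay slightly low: 70 of 88 had a lower mean after risperidone, with a median of -0.04 against -0.01 over all genes. That median was -0.02 without A/J control replicate 3, -0.06 without A/J control replicate 2. Leaving out A/J risperidone replicates 1, 2 and 4 gave -0.06. By complex the median was -0.06 in complex I (31 of 35 lower), -0.03 in complex V (15 of 17), -0.02 in complex III (6 of 8), -0.02 in complex IV (12 of 17) and -0.05 in the assembly factors (4 of 7), whereas complex II had 0.02 (2 of 4 lower). The groups did not overlap for 0 members in the higher direction (1.73% of all genes) and for 8 in the lower (2.59% of all genes). Blood markers moved with this comparison: the mean level of the 4 found ran from 8.95 to 9.47 in A/J control and from 9.63 to 9.87 in A/J risperidone arrays, without overlap, with 0 of 4 called and a median difference of 0.56. Their part in the values of the respiratory genes was not tested.

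Ndufs3, a core subunit of the peripheral arm of complex I, had the smallest p among members in A/J. Its levels were 9.24, 9.05, 9.08 and 9.11 in control mice and 8.97, 8.95, 8.88 and 8.97 after risperidone, which do not overlap. The difference was -0.18 ± 0.07 (SE) with an adjusted p of 0.834 (0.505 without DBA/2J control replicate 4). Ndufaf8, an assembly factor that stabilises another factor of complex I, read 9.05, 9.0, 8.90 and 8.91 in control mice and 8.74, 8.81, 8.68 and 8.76 after risperidone. Its difference of -0.22 ± 0.13 had an adjusted p of 0.949 in limma. Without DBA/2J control replicate 4, where this gene is low, the SE was 0.07 and the adjusted p 0.470. Cox7a1, the muscle form of a complex IV subunit, differed by -0.21 ± 0.10 with an adjusted p of 0.891. Its mean level of 5.01 lay below 5.67, the median of all probe sets. None of these members passed the threshold after adjustment over all probe sets.

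In DBA/2J mice most members were higher after risperidone, and the differences were smaller without replicate 4. With all arrays this held for 78 of 88 members, with a median of 0.14 against 0.01 over all genes. The limma fit called 0 of 88 members, against 0.0526% of all genes, and 11 members had an unadjusted p under 0.05, all higher, against 10.2% of all genes. Without replicate 4 the median was 0.03, 60 of 88 were higher, and 77 of 88 differences were nearer 0. In that fit limma called 0 members (0.0234% of all genes), and 2 had an unadjusted p under 0.05 (7.97% of all genes). The groups did not overlap for 2 members in the higher direction (2.33% of all genes) and 0 in the lower (1.98% of all genes) with all arrays.

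By complex, the median risperidone difference in DBA/2J went from 0.18 to 0.03 in complex I when replicate 4 was left out. It went from 0.20 to 0.04 in complex III, from 0.14 to 0.03 in complex V and from 0.12 to 0.02 in complex IV. Complex II went from 0.06 to 0.03 and the assembly factors from 0.14 to -0.02. Of the 78 members that were higher with all arrays, 58 stayed above 0 without replicate 4.

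**Figure D3:**
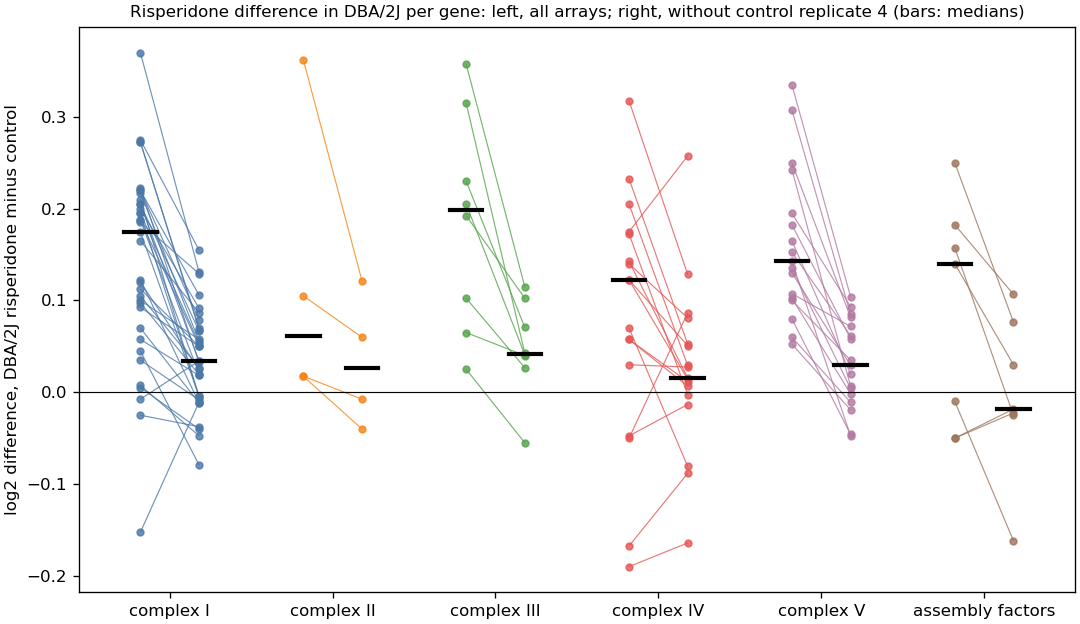
Risperidone minus control in DBA/2J on the log2 scale for each member; the left end of each line uses all 8 arrays of the strain, the right end leaves out control replicate 4, and black bars are medians. The medians fall from 0.18 to 0.03 in complex I and from 0.20 to 0.04 in complex III.

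Ndufa3, a small subunit of the complex I membrane arm, had the smallest p in DBA/2J. Its control arrays read 10.26, 10.16, 10.24 and 9.74, and its risperidone arrays 10.36, 10.33, 10.35 and 10.46, without overlap. The difference was 0.28 ± 0.10 (SE, adjusted p = 0.348 in limma), and 0.16 ± 0.07 without replicate 4 (adjusted p = 0.554). Cox6c, a small subunit of complex IV, read 11.33, 11.43, 11.22 and 10.57 in control mice and 11.35, 11.48, 11.54 and 11.45 after risperidone. Its difference was 0.32 ± 0.14 with all arrays (adjusted p = 0.428) and 0.13 ± 0.09 without replicate 4 (adjusted p = 0.729). Uqcr11 likewise went from 0.36 ± 0.16 to 0.12 ± 0.07, and Sdhc from 0.36 ± 0.17 to 0.12 ± 0.11. Cox6c, Uqcr11 and Sdhc kept their sign and lost most of their size with that array.

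The other 10 members had a lower mean after risperidone in DBA/2J. Cox7a1, at a low mean level of 5.01, differed by -0.19 ± 0.10 with all arrays (adjusted p = 0.493) and by -0.16 ± 0.10 without replicate 4. Its difference in A/J was -0.21, and it was 1 of 5 members below 0 in both strains with all arrays. Ndufa4l2 was another, with differences of -0.13 ± 0.11 (A/J) and -0.15 ± 0.11 (DBA/2J), and -0.01 ± 0.07 in DBA/2J without replicate 4. Cox6a2, at 6.68, 6.71, 6.54 and 6.96 in control and 6.46, 6.67, 6.57 and 6.52 after risperidone, differed by -0.17 ± 0.10, and by -0.09 ± 0.10 without replicate 4. None of these passed the test.

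The difference between the strains' responses, DBA/2J minus A/J, was tested as the interaction. It shares its DBA/2J control arrays with the comparison above, so the values stand beside it and do not add to it. Limma called 0 of 88 members (0% of all genes), and 6 had an unadjusted p under 0.05, against 8.14% of all genes. The median was 0.18 against 0.02 over all genes, with 78 of 88 members above 0. Without replicate 4, limma called 0 members (0% of all genes) and 5 had an unadjusted p under 0.05 (7.96% of all genes); the median was 0.08 and 70 of 88 were above 0. Without A/J risperidone replicates 1, 2 and 4 the median was 0.19. Complex I had medians of 0.20 with and 0.11 without replicate 4, complex II 0.09 and 0.04, complex III 0.20 and 0.08, complex IV 0.13 and 0.03, complex V 0.14 and 0.05, and the assembly factors 0.14 and 0.13.

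Ndufa11, which helps hold the membrane arm of complex I, had the smallest p of the interaction. It read 9.62, 9.47, 9.70 and 9.65 in A/J control mice and 9.47, 9.43, 9.36 and 9.55 in A/J risperidone mice. In DBA/2J it read 9.34, 9.43, 9.47 and 8.98 in control and 9.49, 9.46, 9.54 and 9.53 in risperidone mice. A/J values were thus mostly lower after the drug and DBA/2J values mostly higher. The interaction was 0.36 ± 0.14 (SE) with an adjusted p of 0.464, and 0.25 ± 0.10 without replicate 4 (adjusted p = 0.467). Ndufaf8 had 0.47 ± 0.18 (adjusted p = 0.467), and 0.29 ± 0.11 without replicate 4 (adjusted p = 0.435). Ndufs3 had 0.27 ± 0.10 and Atp5k 0.31 ± 0.14, which were 0.23 and 0.18 without replicate 4.

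Between the strains, control mice differed in 3.46% of all genes by limma, and in 0 of 88 members. At an unadjusted p under 0.05 there were 20 members, 3 of them higher in DBA/2J, against 16.5% of all genes. With all arrays 73 of 88 members were lower in DBA/2J, with a median of -0.14 against -0.00250 over all genes. The groups did not overlap for 0 members in the higher direction (4.17% of all genes) and for 10 in the lower (4.96% of all genes). Without replicate 4 the median was -0.03, 36 members were higher and 52 lower, and 71 of 88 differences were nearer 0. The groups then did not overlap for 4 members in the higher direction (6.86% of all genes) and 12 in the lower (7.09% of all genes). In that fit 1 of 88 members was called (3.26% of all genes), and 12 had an unadjusted p under 0.05 (14.8% of all genes).

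The member called without replicate 4 was Atp5g1, which encodes a form of the c subunit of the ATP synthase's membrane ring (chr11:96072793-96075694, GRCm38.p6). Its levels were 9.26, 9.15, 9.37 and 9.26 in A/J control mice and 9.58, 9.77, 9.76 and 9.34 in DBA/2J control mice. The lowest DBA/2J value, that of replicate 4, lay inside the A/J range, and the other 3 lay above it. The difference was 0.35 ± 0.11 (SE) with all arrays (adjusted p = 0.0865 in limma) and 0.44 ± 0.10 without replicate 4 (adjusted p = 0.0215). In risperidone mice the levels were 9.38, 9.48, 9.14 and 9.54 in A/J and 9.58, 9.79, 9.95 and 9.74 in DBA/2J, without overlap, a difference of 0.38 ± 0.11 (adjusted p = 0.159). A/J risperidone replicates 1, 2 and 4, those between the strains on the marker probe sets, were the 3 higher A/J values here. A second, dimmer probe set of Atp5g1 differed in the same direction between control mice, by 0.48 ± 0.14 with all arrays (adjusted p = 0.0673) and 0.41 ± 0.15 without replicate 4 (adjusted p = 0.162).

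Other members near the threshold between control mice went in both directions. Ndufa11 was lower in DBA/2J by 0.31 on the log2 scale, at -0.31 ± 0.10 (adjusted p = 0.0890), and at -0.20 ± 0.07 without replicate 4 (adjusted p = 0.186). Ndufa10, of the complex I membrane arm, read 9.43, 9.35, 9.59 and 9.58 in A/J and 9.10, 9.18, 9.45 and 8.93 in DBA/2J control mice. Its difference was -0.32 ± 0.10 (adjusted p = 0.0940), and -0.24 ± 0.10 without replicate 4 (adjusted p = 0.216). Ndufa11 and Ndufa10 each have 2 probe sets, and these values rest on the brighter 1. The dimmer probe set of each is not described here. Over the alternatives listed below, the difference ran from -0.36 to -0.105 for Ndufa11 and from -0.42 to -0.12 for Ndufa10. Cox4i2, the lung and low-oxygen form of a regulatory complex IV subunit, read 5.22, 5.21, 5.25 and 5.16 in A/J and 5.25, 5.70, 5.50 and 5.62 in DBA/2J control mice. It was higher in DBA/2J by 0.31 ± 0.10 (adjusted p = 0.0901), and by 0.27 ± 0.10 without replicate 4 (adjusted p = 0.173). Sdha read 10.56, 10.47, 10.68 and 10.43 in A/J control and 10.76, 10.74, 10.78 and 10.53 in DBA/2J control mice, a difference of 0.17 ± 0.08 (adjusted p = 0.290), and 0.23 ± 0.07 without replicate 4 (adjusted p = 0.123).

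**Figure D4:**
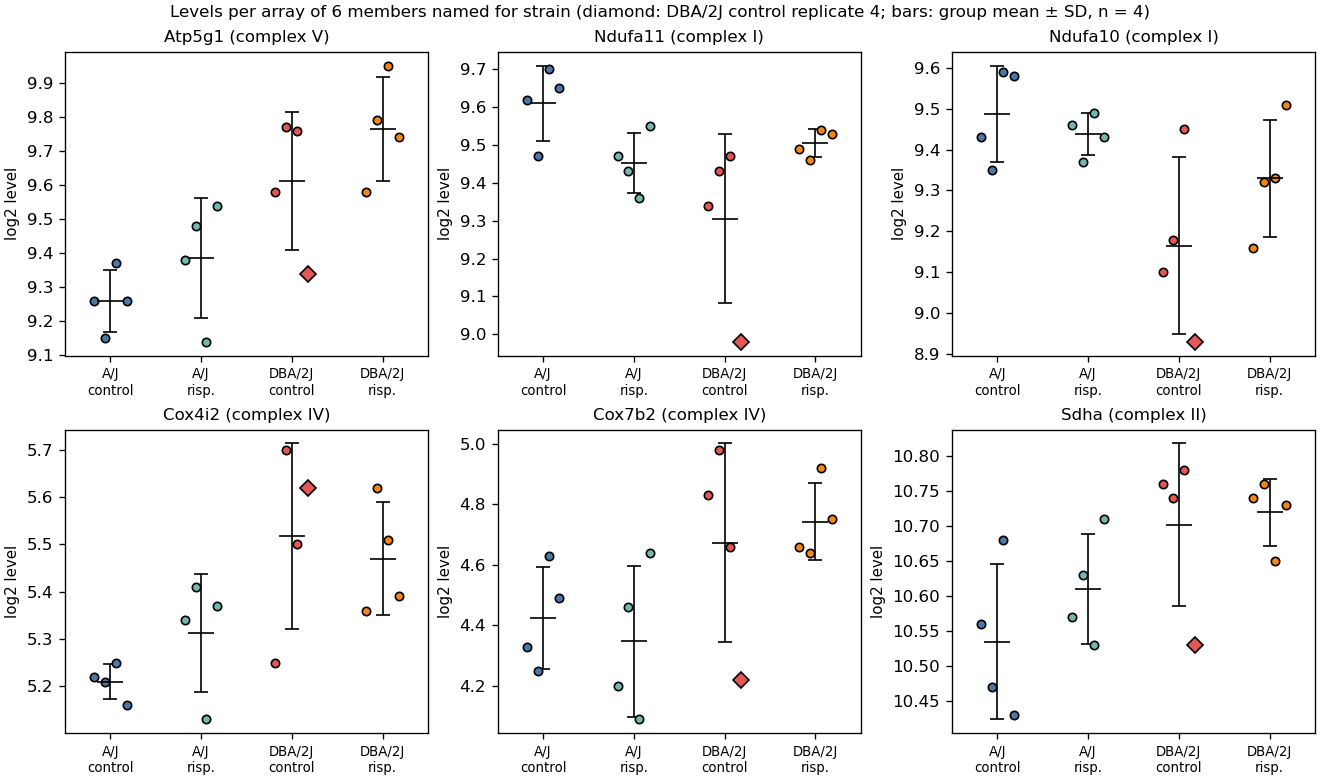
Log2 level in each array of 6 members named for the strain comparisons; points are arrays, bars the group mean ± SD (n = 4), and the diamond is DBA/2J control replicate 4, with an own scale in each panel. In Atp5g1 the 4 A/J control arrays lie between 9.15 and 9.37 and the DBA/2J control arrays between 9.34 and 9.77.

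In risperidone mice the strain difference was called in 0 of 88 members and in 0.643% of all genes by limma. An unadjusted p under 0.05 was reached by 5 members, all higher in DBA/2J, against 8.86% of all genes. Without DBA/2J control replicate 4, which enters through the shared spread, limma called 0 members (1.05% of all genes) and 13 had an unadjusted p under 0.05 (12.3% of all genes); the smallest adjusted p, that of Atp5g1, was then 0.0666. The median was 0.05 against 0.02 over all genes, with 70 of 88 members higher in DBA/2J. Without A/J risperidone replicates 1, 2 and 4 the median was 0.06. The groups did not overlap for 12 members in the higher direction (4.90% of all genes) and 1 in the lower (2.96% of all genes). The median was 0.06 in complex I, 0.05 in complex II, 0.07 in complex III, 0.03 in complex IV, 0.03 in complex V and 0.13 in the assembly factors. Cox7b2, a testis form of a complex IV subunit at a low level here, had 4.20, 4.46, 4.09 and 4.64 in A/J and 4.66, 4.64, 4.92 and 4.75 in DBA/2J. Its difference was 0.40 ± 0.15 (adjusted p = 0.351), with 1 value shared by both groups. Cox7a2l, which joins complexes III and IV into supercomplexes, was higher by 0.17 ± 0.08 (adjusted p = 0.518). Ndufaf2 and Ndufaf5, both assembly factors of complex I, were higher by 0.20 ± 0.08 and 0.22 ± 0.10 (adjusted p = 0.439 and 0.519).

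Uqcr10, a small subunit of complex III (chr11:4701968-4704344, GRCm38.p6), is given here because its probe sets disagreed; it was chosen after its values were seen. Between control mice limma called 3.46% of all genes, read by 1 probe set each. Of the 149 probe sets that name a member, 2 passed the limma test in any comparison, and both belong to Uqcr10. The brightest of its 3, 1424364_PM_a_at, on which the counts above rest, differed between control mice by -0.15 ± 0.12 (adjusted p = 0.557). 1434340_PM_at read 4.07, 3.95, 4.05 and 4.32 in A/J control and 7.49, 7.53, 7.54 and 6.81 in DBA/2J control mice. That is a difference of 3.25 ± 0.37, or 9.48-fold (adjusted p = 1.9e-05), and the groups lie far apart. 1434341_PM_x_at differed in the same direction by 2.00 ± 0.34, or 4-fold (adjusted p = 0.00154). Without DBA/2J control replicate 4 these differences were 3.42 ± 0.40 and 2.26 ± 0.34.

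The A/J risperidone arrays split on the same probe set of Uqcr10. 1434340_PM_at read 5.87, 6.21, 3.87 and 6.52 in A/J risperidone replicates 1 to 4 and 7.33, 7.69, 7.52 and 7.65 in DBA/2J risperidone mice. Replicate 3 was at the level of the A/J control arrays, and replicates 1, 2 and 4 were between the strains, as they were on the strain markers. The strain difference among risperidone mice was 1.93 ± 0.37 (adjusted p = 0.0123). The risperidone difference in A/J was 1.52 ± 0.37 (adjusted p = 0.311), with an SD of 1.19 within the treated group against 0.16 in the controls. Which of the 3 probe sets follows the amount of Uqcr10 RNA was not tested.

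**Figure D5:**
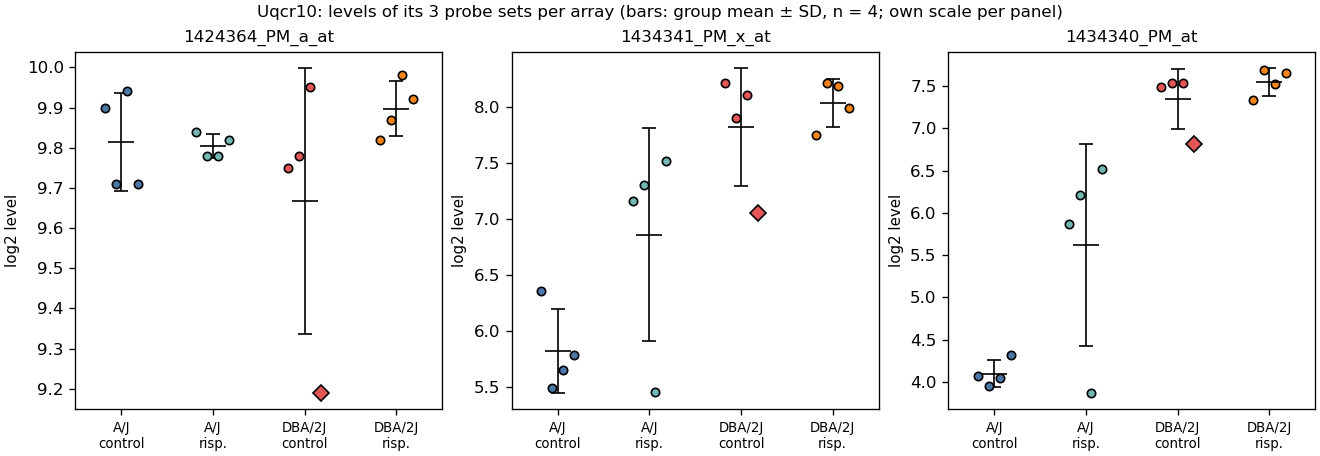
Log2 level of the 3 Uqcr10 probe sets in each array; points are arrays, bars the group mean ± SD (n = 4), the diamond is DBA/2J control replicate 4, and each panel has its own scale. In 1434340_PM_at the A/J control arrays lie between 3.95 and 4.32 and 3 of the 4 A/J risperidone arrays between 5.87 and 6.52, while 1424364_PM_a_at shows no such gap.

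The wider pathway was counted in each comparison from lists of genes that the symbol rule does not take. In the risperidone comparisons and the interaction, limma called 0 genes in each of the 6 lists. Between control mice, 1 assembly factor or inhibitor was higher in DBA/2J and 2 were lower, of 34; of the 73 mitochondrial ribosomal proteins 0 were higher and 4 lower, and of the 70 cytosolic ribosomal proteins 1 was higher and 3 were lower. These calls are 8.82%, 5.48% and 5.71% of the lists, beside 3.46% of all genes. Without replicate 4 the mitochondrial ribosomal proteins had 2 higher and 4 lower and the cytosolic ones 2 and 2. Limma called 3.26% of all genes in that fit. Among risperidone mice 1 assembly factor or inhibitor and 1 cytosolic ribosomal protein were higher in DBA/2J, beside 0.643% of all genes called. The carriers, the tricarboxylic acid cycle genes and the regulators had 0 calls between the strains in control or risperidone mice. The median difference of the lists in DBA/2J after risperidone was 0.16 for cytosolic ribosomal proteins, 0.13 for mitochondrial ribosomal proteins, 0.11 for carriers, 0.09 for the tricarboxylic acid cycle, 0.07 for assembly factors and inhibitors and 0.01 for regulators. Without replicate 4 the same medians were 0.04, 0.05, 0.02, 0.01, 0.04 and 0.02.

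Markers of other cell types moved between the groups as well. Oligodendrocyte markers had a mean level of 8.79 to 9.48 in A/J control, 8.70 to 9.13 in A/J risperidone, 8.13 to 8.54 in DBA/2J control and 8.15 to 9.06 in DBA/2J risperidone arrays, and 2 of 6 were called lower in DBA/2J control mice (1 without replicate 4). Microglia markers ran from 6.63 to 6.79, 6.51 to 6.70, 6.08 to 6.33 and 6.27 to 6.42 in the same order, with 2 of 6 called lower in DBA/2J control mice. Striatal projection neuron markers ran from 6.20 to 6.73, 6.27 to 6.42, 6.0 to 6.30 and 6.29 to 6.62, with 2 of 8 called lower in DBA/2J control mice and 0 without replicate 4. Of 8 astrocyte markers 1 was called lower in DBA/2J control mice, and no marker of the other 6 lists was called between the control groups. For scale, limma called 3.46% of all genes between control mice, and 3.26% without replicate 4. Among risperidone mice 1 of 6 microglia markers was called lower in DBA/2J, beside 0.643% of all genes. The part of these cell types in the differences of the respiratory genes was not tested.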

How the data were processed

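Total RNA of 16 striata was measured on Affymetrix mouse perfect-match arrays, 1 per mouse. The deposited values are log2 levels per probe set with 2 decimals, which the authors made with RMA, per the submitters' processing notes; its version, background step and array filters are not given in the sources used here. RMA sets arrays to nearly the same distribution, so a shift of all genes in an array cannot be seen.

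The table holds 45141 probe sets. After removal of the 104 array controls, 45037 remained and entered the tests whatever their level; 28898 name 1 gene, 551 several and 15588 none, by the platform's annotation. All 88 members matched RefSeq (GRCm38.p6). All 16 arrays entered 1 model of the 4 group means, fitted with lmFit and eBayes of limma 3.58.1 (R 4.3.3). Tests were two-sided, with Benjamini-Hochberg adjustment across the 45037 probe sets, separately for each of 5 comparisons. A probe set was called at an adjusted p under 0.05. SE is that of limma's difference. The fit was tested on simulated data. Figures were drawn with matplotlib 3.10.9.

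The strain position of an array is the median over 47 probe sets that differed between the control groups by 1.5 or more (log2), read 7 or more in the brighter strain and had an adjusted p below 0.01. For each probe set it was taken on unlogged levels, from the A/J control mean to the DBA/2J control mean. Replicate numbers were not used as pairs in the tests. Of the 4 correlations between same-numbered arrays, 1, 2, 1 and 1 exceeded 0.1 in the 4 comparisons of 2 groups. Their mean was 0.049, 0.074, 0.056 and 0.025 there, against -0.016, -0.025, -0.020 and -0.008 for arrays of other numbers. So few correlations cannot exclude a pairing.

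The members, gene lists and alternatives were chosen with earlier results of these data known. Named members (49) were set by a rule, and not all of them are described above. The rule took those called and the 2 with the smallest p for each complex and comparison. It also took the 2 furthest below and 1 furthest above in DBA/2J control replicate 4 for each complex, and a set fixed for their role. Alternatives were other normalizations, filters, probe set summaries, limma options, the replicate block, fewer arrays and each array left out.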

Additional observations from a re-analysis of the deposited data

Results flagged for a closer look

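Groups of 4 arrays were searched for an array far from the rest, by its gap to the nearest array over the range of the group, against Dixon's critical value. Of 96 groups looked at, 11 passed, where about 1 in 20 independent groups would pass by chance. The groups share genes, and DBA/2J control replicate 4 was known to stand apart before the search. The count is therefore not a test against chance. DBA/2J control replicate 4 was the low array in 7 of them: the mean level of all members (0.955), of complex I (0.963), complex III (0.836), complex V (0.868) and the assembly factors (0.882), and the genes Sdha (0.840, at a level of 10.53) and Atp5pb (0.918, at 8.73). These 7 share 1 array and are not separate events.

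The other 4 were single arrays of other groups. Complex I was highest in A/J risperidone replicate 4 (0.830, at a mean level of 9.74). The assembly factors were lowest in DBA/2J risperidone replicate 2 (0.846), where the whole group spans 7.52 to 7.54. Ndufa3 was highest in A/J control replicate 3 (0.905, at 10.48), and Ndufaf8 was highest in DBA/2J risperidone replicate 1 (0.917, at 9.11).

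Apart from the probe set read for each gene, 2 further probe sets of Uqcr10 differed between the strains in control mice, by 3.25 and 2.00 on the log2 scale, both higher in DBA/2J.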

How the results depend on the processing

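Each comparison was recomputed under 26 or 27 alternatives, of which 16 left out 1 array each. In both risperidone comparisons, the interaction and the strain difference in risperidone mice, 0 members were called under each of them. In control mice the strain difference called 1 member after a second quantile normalization (Atp5g1), 1 among the 81 members at or above the median level (Ndufa11), 2 with all probe sets of a gene averaged (Atp5g1, and Uqcr10 at 1.70), 2 with trend and robust eBayes (Atp5g1 and Ndufa11) and 1 with array weights (Atp5g1). Leaving out 1 array gave 0 to 1: Cox4i2 (adjusted p = 0.0220) without DBA/2J control replicate 1, Ndufa10 (0.0214) without replicate 3 and Atp5g1 (0.0215) without replicate 4. Over all alternatives the adjusted p ran from 0.0111 to 0.196 for Atp5g1 and from 0.0450 to 0.429 for Ndufa11. It ran from 0.0214 to 0.377 for Ndufa10 and from 0.0220 to 0.230 for Cox4i2. For scale, limma called 3.46% of all genes between control mice in the main fit and 3.26% without DBA/2J control replicate 4. That share was not counted under the other alternatives.

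The median over members in DBA/2J after risperidone ran from 0.0296 (without control replicate 4) to 0.18 with 1 array left out, and in control mice the strain median ran from -0.18 to -0.0321 (without DBA/2J control replicate 4). Leaving out A/J risperidone replicates 1, 2 and 4 with DBA/2J control replicate 4, chosen after seeing the data, leaves 1 A/J risperidone array, assumed to vary like the other groups. The comparisons that use that group then had medians of -0.06 (A/J after risperidone), 0.10 (interaction) and 0.06 (strain, risperidone mice). The other medians, 0.0296 and -0.0321 with 1 call (Atp5g1), use no A/J risperidone array and equal those without DBA/2J control replicate 4, so they say nothing of those 3 arrays. With the replicate number as a block, 0 members were called in each comparison and the medians did not move (0.14 in DBA/2J after risperidone). Of 6536 values of named members, 10 became calls, 253 changed sign without a call in either fit and 0 reversed with a call. Replicate 4 stayed 0.32 to 0.44 below its group in the mean of all members under the 3 other normalizations or summaries run. The number of mice, 4 per group, limits the precision.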
